A study of Gallus gallus with 50 samples.

Results

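The jejunum of 5 broiler chickens fed purified lysophosphatidylcholine (LPC) at the higher of 2 levels was compared with the jejunum of 5 chickens on unsupplemented feed. The 10 arrays were chosen by the tissue and treatment labels alone, from 50 arrays of 25 birds in all. All birds were male Cobb 500 broilers sampled on day 10, and the RNA came from cells scraped off the mucosa, hybridised to the Affymetrix chicken genome array. The control feed had no supplement. The LPC high feed held 1000 g/T of purified LPC plus carrier, which supplied 19 g/T of LPC. The LPC was isolated from lysolecithin, a mixture that includes phospholipids which have lost a fatty acid chain. Further sets of 5 arrays enter where named. They are the jejunum on LPC low (9.5 g/T of LPC), the jejunum on lysolecithin high (500 g/T of lysolecithin, supplied as a product on carrier, with the same 19 g/T of LPC), and the ileum of the same control and LPC high birds. Lysolecithin low (250 g/T of lysolecithin, 9.5 g/T of LPC) enters once. Birds are numbered by replicate within a diet. The labels do not say that the control feed held the carrier, nor which floor pen received which feed, so LPC, carrier and pen cannot be told apart.

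As background, LPC forms in the gut when pancreatic phospholipase A2 cuts a fatty acid from phosphatidylcholine, and it emulsifies fat together with bile salts. Enterocytes take up LPC, monoglycerides and fatty acids, rebuild phosphatidylcholine and triglyceride from them, and pack the triglyceride with apolipoprotein B into lipoproteins, which birds send into the portal blood. The jejunum is the main site of this fat absorption, while the ileum recovers bile acids.

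Each probe set value is a log2 signal, computed by the authors with the RMA method (background correction, quantile normalisation and a robust summary over probes), so a difference of 1 is a 2-fold change. RMA equalises the arrays' distributions, and every difference is therefore relative to the bulk of the array. Differences are LPC high minus control with batch taken out, given with their standard error (SE). They come from limma, a linear model with moderated errors, on all 25 jejunum arrays, and p-values were adjusted by Benjamini-Hochberg over 38382 probe sets. Genes are said to rise or fall only where the adjusted p was under 0.05. Replicates are separate birds, so the p-values measure the spread between birds, and their number limits the precision.

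All 10 arrays carried strong enterocyte markers. The levels of VIL1 (villin) lay between 11.78 and 12.19, those of SI (sucrase-isomaltase) between 12.47 and 13.04, and those of CDX2 between 11.12 and 11.60. The ileal bile acid transporter SLC10A2 divided the control birds: its levels were 9.59, 11.82, 3.08, 7.37 and 3.09 in control birds 1 to 5 and 7.39, 7.49, 3.61, 7.08 and 4.03 in LPC high birds 1 to 5. In the ileum of the control and LPC high birds it lay between 11.23 and 12.38. Control bird 2 thus carried SLC10A2 at the ileal level in an array labelled jejunum. A segment score, the mean of 15 jejunum-biased genes minus that of 15 ileum-biased genes chosen on the other birds, put this array at -4.77, against a median of -5.14 over the ileum arrays and 2.15 over the jejunum arrays. The other controls scored -0.85, 5.20, 0.42 and 5.20, and the LPC high birds scored 3.25, 1.44, 4.13, 2.70 and 5.11. The difference between the groups in this score did not pass (two-sided exact permutation test, 5 birds a group, p = 0.317).

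A measure of RNA quality separated the groups. This index, the mean 5' minus 3' signal of the control transcripts for actin, GAPDH and EF1A, was -1.17, -0.86, -0.94, -0.82 and -1.06 in the controls and -0.35, -0.44, -0.50, -0.41 and -0.60 in the LPC high birds. Every LPC high array read further toward the 5' end than every control array (exact two-sided permutation test, p = 0.00794, the smallest that 5 against 5 can give). The labels state that RNA was used only above a RIN of 8.7, and that some tissues were extracted again to reach it, without naming them. Diet group and index cannot be told apart for these 10 arrays, and the difference with the index as a covariate stands beside each of the 11 called genes that it made over 1.5 times smaller. In the ileum of the same birds the index lay between -1.04 and -0.72 in controls and between -0.63 and -0.44 on LPC high. The groups did not overlap there either, so diet group and index cannot be told apart in the ileum.

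**Figure D1:**
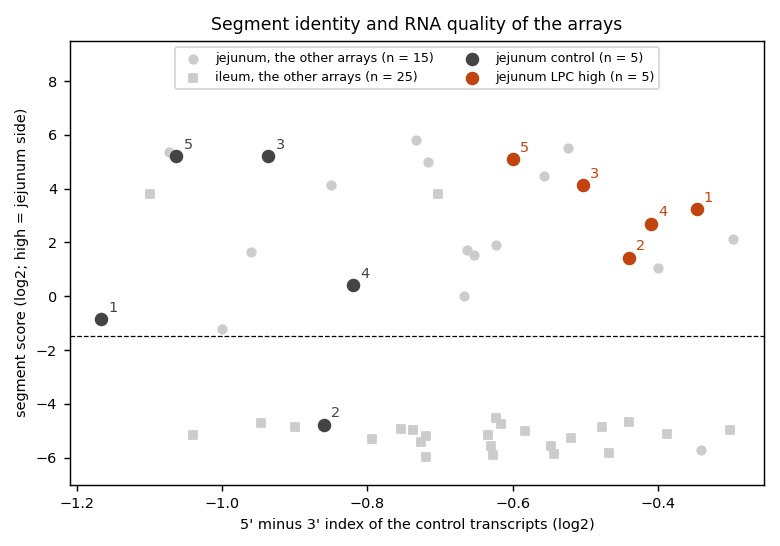
Segment score (log2, y axis, high on the jejunum side) against the 5' minus 3' index (log2, x axis) for all 50 arrays, with the bird numbers of the 10 arrays compared; controls are dark, LPC high birds orange, grey circles are other jejunum arrays, grey squares ileum arrays, and the dashed line marks -1.495, halfway between the segments' medians. Control bird 2 lies below the line at -4.768, and the LPC high birds lie to the right of all control birds.

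On LPC high, the genes that rose included PLA2G12B, MOGAT2, CYP4V2 and PSAP, which handle lipid, and TLR3 and ZC3HAV1, which sense viral RNA. Those that fell included RALGAPA2, ARFGEF1 and ARHGEF12, which regulate small GTPases, the histone demethylases KDM4C and KDM3B, and the repressor BCL6. In bulk tissue a change in the number of cells of a type and a change in RNA per cell cannot be told apart. Of 38382 probe sets 43 passed the threshold (0.112%), 19 higher (0.0495%) and 24 lower (0.0625%). The 43 stood for 16 genes that rose, 16 that fell and 4 probe sets with no single gene symbol, 1 higher and 3 lower. With each array centred on its own median 31 passed, 18 higher and 13 lower. An unadjusted p under 0.05 was reached by 4179 probe sets (10.9%). In 29 of the 32 genes the groups did not overlap, as in 3.67% of all probe sets, and all 32 had the same sign within each of the 3 batches, as had 34.4% of all probe sets. The genes were called on these same birds and batches, so both counts only describe them. Batches 1 to 3 held 2, 2 and 1 of the control birds and 2, 1 and 2 of the LPC high birds. Differences within batch 2 thus rest on 1 LPC high bird, and those within batch 3 on 1 control bird. Without control bird 2 1 probe set passed, and the differences of the 32 genes hardly moved (median ratio 0.984), with adjusted p from 0.0524 (RALGAPA2 and MAGI1) to 0.0817 (NUMB). Leaving out control bird 1 or 5 or LPC high bird 1, 2, 3 or 4 left 0 or 1, and batch as a random block left 2. With the index as a covariate none passed (smallest adjusted p 0.131, limma), all 32 kept their sign with unadjusted p of at most 0.0285, and the median ratio to the reported difference was 0.753. The index made 9 of the genes that rose and 2 that fell over 1.5 times smaller.

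**Figure D2:**
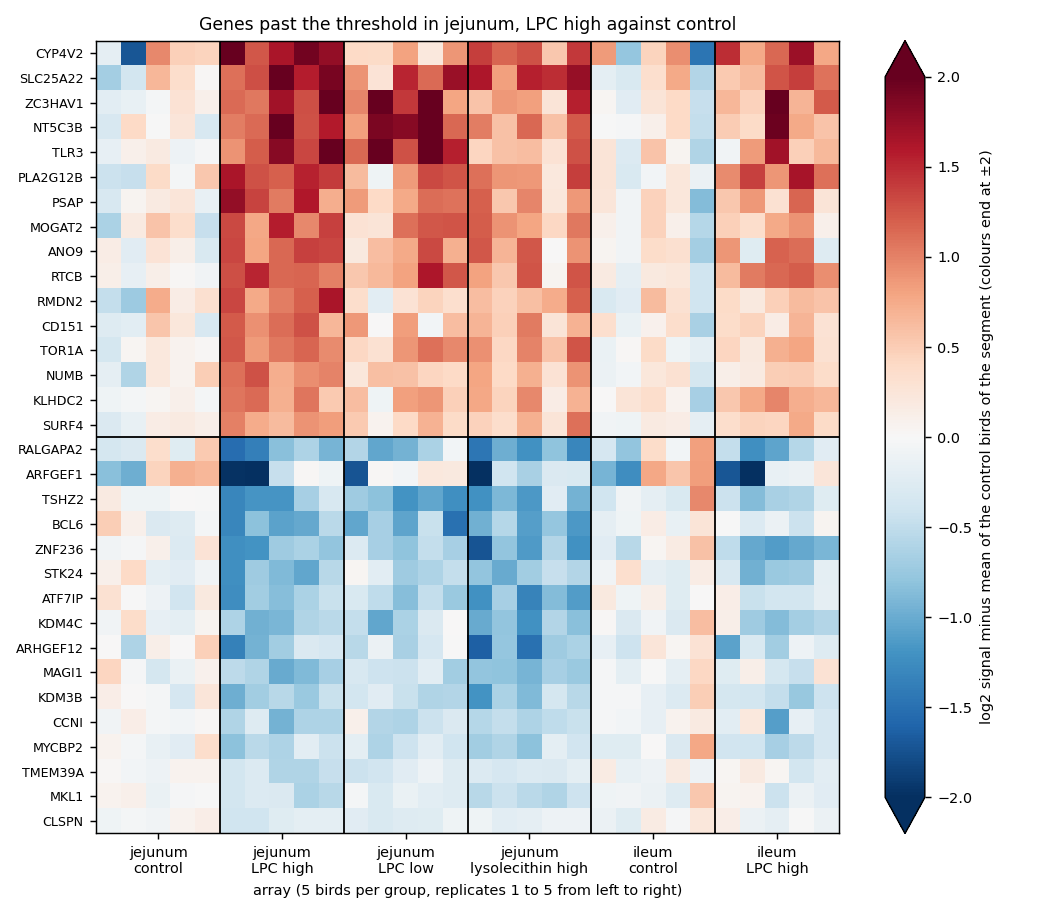
Each row is 1 of the 32 genes past the threshold and each column 1 array; the colour is the log2 signal minus the mean of the 5 control birds of the same segment, red higher and blue lower, with colours ending at 2 either way. The 5 LPC high jejunum birds are red for the 16 genes that rose and blue or pale for the 16 that fell, and the jejunum of LPC low and lysolecithin high and the ileum of both control and LPC high birds are shown beside them.

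Among the genes of lipid handling, PLA2G12B, MOGAT2, CYP4V2 and PSAP rose. PLA2G12B, a catalytically inactive relative of secreted phospholipase A2 that loads lipid onto lipoproteins in mammals, read 6.46, 6.42, 7.26, 6.85 and 7.43 in the control birds and 8.52, 8.15, 8.08, 8.43 and 8.28 in the LPC high birds. No control reached the lowest LPC high bird, and the lowest controls were birds 1 and 2. The difference was 1.36 ± 0.23, a 2.57-fold rise (adjusted p = 0.0322, limma), or 0.87 with the index as a covariate, and PLA2G12B has no other probe set on the array. Its ileum levels in the same diets were 6.85, 6.29, 6.55, 6.82 and 6.49 in the controls and 7.55, 7.96, 7.49, 8.25 and 7.70 on LPC high, where the difference of 1.22 ± 0.25 did not pass (adjusted p = 0.162, limma).

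MOGAT2, which joins a fatty acid to monoglyceride in the first step of rebuilding triglyceride, read 7.01, 7.82, 8.21, 8.00 and 7.19 in controls and 8.97, 8.42, 9.22, 8.60 and 9.02 on LPC high. The groups did not overlap, and control birds 1 and 5 were lowest. MOGAT2 rose by 1.23 ± 0.24 (adjusted p = 0.0452, limma), or by 0.73 with the index as a covariate. Its brightest probe set, with a mean jejunal level of 10.4, differed by 0.66 ± 0.14 (adjusted p = 0.0606), its 6.15-level probe set by 0.58 ± 0.16, and its dimmest by -0.20 ± 0.12.

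CYP4V2, a cytochrome P450 that hydroxylates the far end of fatty acids, had the largest difference of the 32 genes. Its signals were 8.97, 7.45, 10.12, 9.63 and 9.60 in controls and 11.58, 10.40, 10.79, 11.08 and 10.91 on LPC high. The groups did not overlap, control bird 2 was the lowest of all 10, and the difference of 1.80 ± 0.35 (3.5-fold; adjusted p = 0.0452, limma) was 1.37 ± 0.26 without that bird. Within batches 1 to 3 the difference was 2.78, 0.92 and 1.40. The other CYP4V2 probe set, brighter at 11.4, differed by 0.62 ± 0.35 (adjusted p = 0.54).

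PSAP, the precursor of the saposins that present sphingolipids to lysosomal enzymes, read 8.59, 8.97, 9.10, 9.15 and 8.76 in controls and 10.67, 10.26, 9.96, 10.52 and 9.64 on LPC high. Every LPC high bird exceeded every control (highest control 9.15, lowest LPC high bird 9.64). It rose by 1.28 ± 0.21 (adjusted p = 0.0289, limma), and a dimmer PSAP probe set rose by 1.61 ± 0.31 (adjusted p = 0.0452). The brightest PSAP probe set, at 11.8, differed by 0.04 ± 0.11 (adjusted p = 0.936), and with the index as a covariate the first probe set's difference was 0.60.

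The named probe set of each gene was the one with the lowest p, and this choice favours large values. Of the 32 genes 28 had 85 other probe sets, of which 7 passed and 70 had the same sign, and in 22 genes none of the others passed. In 20 genes the brightest other probe set was brighter than the named one. Its difference was smaller in all 20 and passed in none, with a median size of 0.28 on the log2 scale against 0.98 for the named probe sets.

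Pathway lists were read with 1 probe set per gene, the brightest in the jejunum. Over all 13009 genes 12 passed (0.0922%), 4 higher (0.0307%) and 8 lower (0.0615%), 50.2% of the differences were positive and their median was 0.000767. Of 20 measured genes of lipid uptake none passed, 15 were positive and the median was 0.23, or 0.10 without control bird 2. CD36, a fatty acid carrier of the brush border, read 9.09, 4.33, 9.82, 8.95 and 9.35 in controls and 10.11, 10.59, 9.60, 10.24 and 9.99 on LPC high. Control bird 2 stood far below the rest, 4 of 5 LPC high birds lay above all controls, and the difference of 1.95 ± 1.01 (adjusted p = 0.507) was 0.84 ± 0.85 without that bird and 4.38 with the index as a covariate. SCARB1, a receptor for lipoproteins that also takes up cholesterol and carotenoids, had a difference of 1.61 ± 0.85, or 0.76 without control bird 2. FABP2, the intestinal fatty acid binding protein, differed by 0.24 ± 0.21, with levels of 10.55 to 11.12 in controls and 10.83 to 11.33 on LPC high.

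Of 26 genes of glyceride synthesis and breakdown none passed by its brightest probe set, and MOGAT2 passed by another. The median was 0.12. DGAT2, which adds the last fatty acid of a triglyceride, read 6.12, 6.12, 8.07, 7.34 and 7.66 in controls and 9.13, 7.67, 8.48, 8.55 and 8.90 on LPC high. In all, 4 of 5 LPC high birds lay above all controls, and the difference of 1.49 ± 0.43 did not pass (adjusted p = 0.166, limma). The other DGAT2 probe set differed by 0.03. MGLL, a monoglyceride lipase, differed by 0.91 ± 0.58 and AGPAT3, an acyltransferase of phosphatidic acid synthesis, by -0.63 ± 0.26, neither past the threshold.

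The list of lipoprotein assembly, which holds PLA2G12B, had 19 measured genes. Of these 1 rose by its brightest probe set and SURF4 by another, 15 were positive and the median was 0.23 (0.10 without control bird 2). MTTP, the microsomal protein that transfers triglyceride onto apolipoprotein B, read 11.05, 10.28, 11.55, 11.26 and 11.40 in controls and 11.90, 11.72, 11.84, 11.71 and 12.19 on LPC high. The groups were apart, control bird 2 was the lowest, and the difference of 0.76 ± 0.17 missed the threshold (adjusted p = 0.0697, limma). Without that bird it was 0.57 ± 0.14. APOB itself differed by 0.07 ± 0.18, with overlapping levels of 11.56 to 12.76 in controls and 12.32 to 12.52 on LPC high. APOA4, an apolipoprotein of intestinal lipoproteins, read 11.69 in control bird 2 and 13.48 to 13.91 in the other 9 birds.

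The listed enzymes that make, remake or break LPC did not pass. Of 40 phospholipases and lysophospholipid enzymes only the catalytically inactive PLA2G12B, which the previous list shares, passed, and the median was 0.13. LPCAT3, which turns LPC back into phosphatidylcholine, differed by 0.10 ± 0.19 with levels of 10.56 to 11.38 in controls and 10.85 to 11.41 on LPC high. LYPLA1, a lysophospholipase, differed by 0.10 ± 0.17. TMEM86A, a lysoplasmalogenase, read 5.32, 5.19, 5.91, 5.64 and 5.49 in controls and 8.11, 7.30, 6.80, 8.15 and 5.31 on LPC high. In 4 of 5 LPC high birds TMEM86A exceeded every control, bird 5 did not, and the difference of 1.58 ± 0.52 did not pass (adjusted p = 0.226, limma). Of 19 genes of phosphatidylcholine synthesis none passed and the median was 0.01. PISD, which makes phosphatidylethanolamine in mitochondria, had the largest difference there, 1.32 ± 0.37 (adjusted p = 0.144), or 0.87 without control bird 2. PCYT1A, the rate-setting enzyme of the choline pathway, differed by 0.50 ± 0.17.

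Receptors for lysophospholipids showed no member past the threshold among 16, with a median of 0.13. LPAR5, a receptor for lysophosphatidic acid, read 9.21, 8.39, 9.39, 9.36 and 9.45 in controls and 10.52, 10.62, 9.70, 10.07 and 10.06 on LPC high. Every LPC high bird was above every control, and the difference of 1.05 ± 0.26 (adjusted p = 0.0888, limma) was 0.89 without control bird 2 and 0.70 with the index. LPAR1 was dim in all birds, between 3.51 and 4.40.

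Cholesterol genes had mostly negative differences, none of them past the threshold. Of 19 genes of cholesterol synthesis 5 were positive and the median was -0.27, or -0.14 without control bird 2. SC5D, which acts late in sterol synthesis, read 7.46, 7.37, 7.29, 7.31 and 7.62 in controls and 6.83, 7.23, 6.82, 6.65 and 6.56 on LPC high, with every LPC high bird below every control. Its difference of -0.63 ± 0.22 did not pass (adjusted p = 0.27, limma). ACACA, which makes malonyl-CoA for fatty acid synthesis, differed by -0.81 ± 0.25 (adjusted p = 0.187), and FASN by -0.36 ± 0.33. CPT1A, which admits long fatty acids to mitochondrial oxidation, read 7.78 to 8.94 in controls and 6.89 to 8.25 on LPC high, a difference of -1.11 ± 0.29 (adjusted p = 0.121). The medians were -0.02 for 20 genes of fatty acid synthesis and 0.15 for 33 genes of fatty acid oxidation, with no member past by its brightest probe set and CYP4V2 past by another.

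Among 12 genes of bile acid handling none passed and the median was -0.14. ABCC2, an exporter of conjugated organic anions, read 6.98, 6.09, 9.08, 7.55 and 8.36 in controls and 9.19, 9.21, 8.96, 8.97 and 8.96 on LPC high. The LPC high birds lay close together, from 8.96 to 9.21, while the controls spread widely, and the difference of 1.48 ± 0.38 (adjusted p = 0.121, limma) was 1.12 without control bird 2. Of 35 genes of sphingolipid and lysosomal lipid breakdown only PSAP passed, by a probe set other than its brightest, and the median was 0.08.

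**Figure D3:**
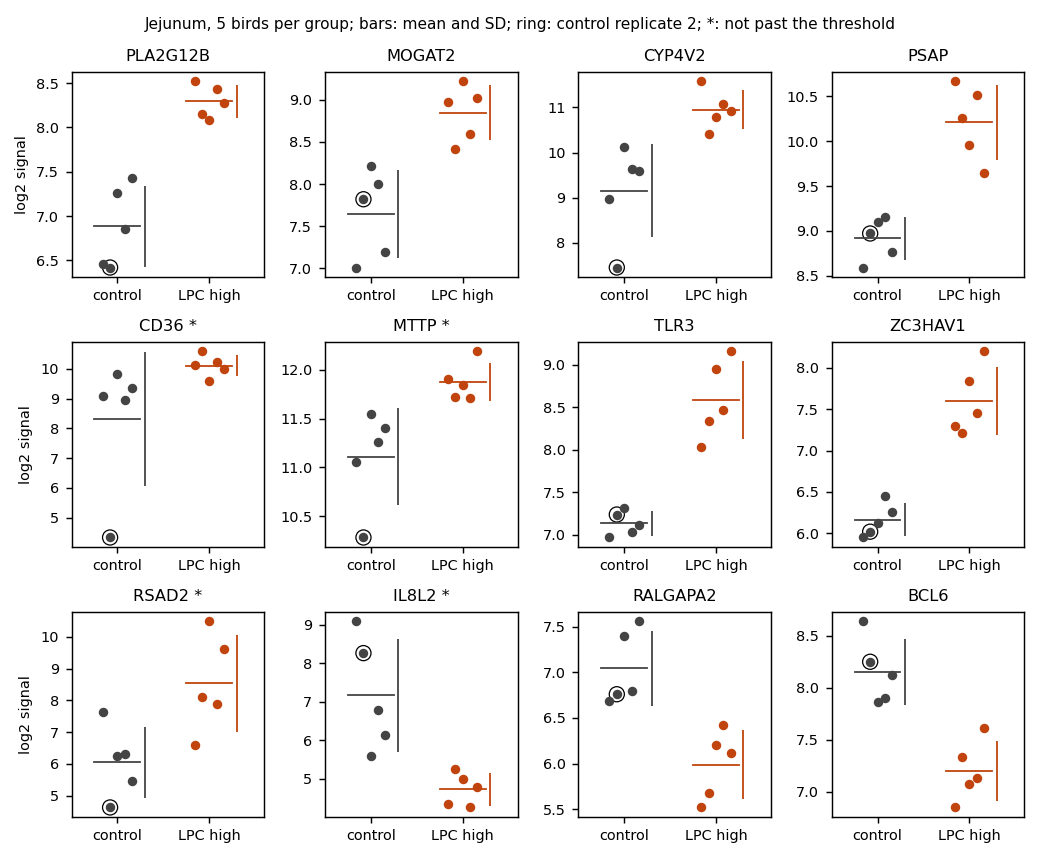
Log2 signals of named genes in the 5 control birds (dark grey) and the 5 LPC high birds (orange); horizontal bars are means, vertical bars the SD, the ring marks control bird 2, and an asterisk marks genes not past the threshold. For PLA2G12B, MOGAT2, CYP4V2, PSAP, MTTP, TLR3, ZC3HAV1, IL8L2, RALGAPA2 and BCL6 the groups do not overlap, and control bird 2 is the lowest point for PLA2G12B, CYP4V2, CD36, MTTP and RSAD2.

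TLR3 and ZC3HAV1, which detect viral RNA, both rose. TLR3, the endosomal receptor for double-stranded RNA, read 6.97, 7.24, 7.32, 7.03 and 7.12 in controls and 8.03, 8.34, 8.95, 8.47 and 9.16 on LPC high. The controls lay within a narrow band, from 6.97 to 7.32, and every LPC high bird was above it. TLR3 rose by 1.41 ± 0.23, 2.66-fold (adjusted p = 0.0289, limma). Without control bird 2 its adjusted p was 0.0601, and TLR3 has dimmer probe sets at levels of 4.23 and 3.72 that differed by 0.15 ± 0.15 and 0.56 ± 0.28. ZC3HAV1, the zinc finger antiviral protein, read 5.95, 6.02, 6.13, 6.45 and 6.26 in controls and 7.30, 7.21, 7.84, 7.45 and 8.20 on LPC high. Again the groups were apart, and the rise was 1.44 ± 0.25 (adjusted p = 0.0333, limma). Its brightest probe set differed by 0.94 ± 0.22 (adjusted p = 0.079) and the remaining one by 1.22 ± 0.26 (adjusted p = 0.0604).

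Of 20 measured genes of double-stranded RNA sensing 1 passed by its brightest probe set (TLR3), 15 were positive and the median was 0.36. Unadjusted p under 0.05 was reached by 8 upward and 2 downward, against 6.04% and 4.96% of all genes. IFIH1, the cytosolic sensor MDA5, read 9.07, 7.95, 8.32, 8.48 and 8.40 in controls and 9.01, 9.75, 9.86, 9.27 and 10.34 on LPC high, a difference of 1.21 ± 0.40 (adjusted p = 0.231, limma). LPC high bird 1 lay within the range of the controls for IFIH1 and the other 4 above it. EIF2AK2, the kinase PKR, differed by 0.93 ± 0.32. In the other direction, TRAF3, an adaptor of this pathway, differed by -0.87 ± 0.41 and CGAS, the sensor of cytosolic DNA, by -0.60 ± 0.23, neither past the threshold.

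Interferon-induced effectors, genes that interferon switches on against viruses, had 27 of 38 genes positive, against 50.2% of all genes, and a median of 0.36. Unadjusted p under 0.05 was reached by 17 of them, all upward, against 6.04% of all genes, but none passed the threshold. RSAD2 (viperin), the member with the largest difference, read 7.63, 4.63, 6.25, 6.31 and 5.45 in controls and 6.59, 8.11, 10.49, 7.90 and 9.60 on LPC high. LPC high birds 3 and 5 were far above the rest, bird 1 lay inside the control range, and the difference of 2.53 ± 0.79 did not pass (adjusted p = 0.198, limma). IFIT5, which binds viral RNA, read 9.77, 7.25, 9.06, 9.39 and 8.33 in controls and 9.81, 10.56, 11.33, 10.08 and 11.19 on LPC high. All LPC high birds exceeded all controls, by little in bird 1, and the difference was 1.88 ± 0.51 (adjusted p = 0.137). OASL, with 1.22 ± 0.39, and MX1, with 1.08 ± 0.46, overlapped between the groups. Control bird 2 was lowest for RSAD2, IFIT5 and MX1, and the list's median without it was 0.39.

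Genes that carry the interferon signal had a median below zero. In all, 5 of 14 were positive, the median was -0.12 and none passed. SOCS3, a feedback inhibitor of cytokine signalling, read 11.24, 10.33, 8.30, 9.55 and 8.22 in controls and 7.31, 8.55, 7.77, 7.44 and 8.41 on LPC high. Control birds 1 and 2 were highest, the groups overlapped, and the difference was -1.66 ± 0.47 (adjusted p = 0.157, limma). IFNGR1, a chain of the interferon gamma receptor, was dim, at 3.73 to 4.35 in controls and 3.15 to 3.67 on LPC high, and differed by -0.57 ± 0.15 (adjusted p = 0.126). IRF9, a partner of the STAT factors, differed by 0.29 ± 0.28.

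Inflammatory cytokines and chemokines had 12 of 30 genes positive and a median of -0.07, none past the threshold. IL8L2, a chicken interleukin 8 that draws heterophils, read 9.09, 8.26, 5.59, 6.77 and 6.12 in controls and 4.35, 5.26, 5.00, 4.25 and 4.77 on LPC high. Every LPC high bird lay below every control, and the controls spread from 5.59 to 9.09. Its difference of -2.50 ± 0.56 was the largest downward one of any listed gene and missed the threshold (adjusted p = 0.067, limma). IL8L1, the other chicken interleukin 8, differed by -1.79 ± 0.65 (adjusted p = 0.293). IL1B and IL6 were dim, at 3.37 to 4.00 and 3.96 to 4.90 in all 10 birds, and differed by 0.03 ± 0.13 and -0.29 ± 0.19.

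**Figure D4:**
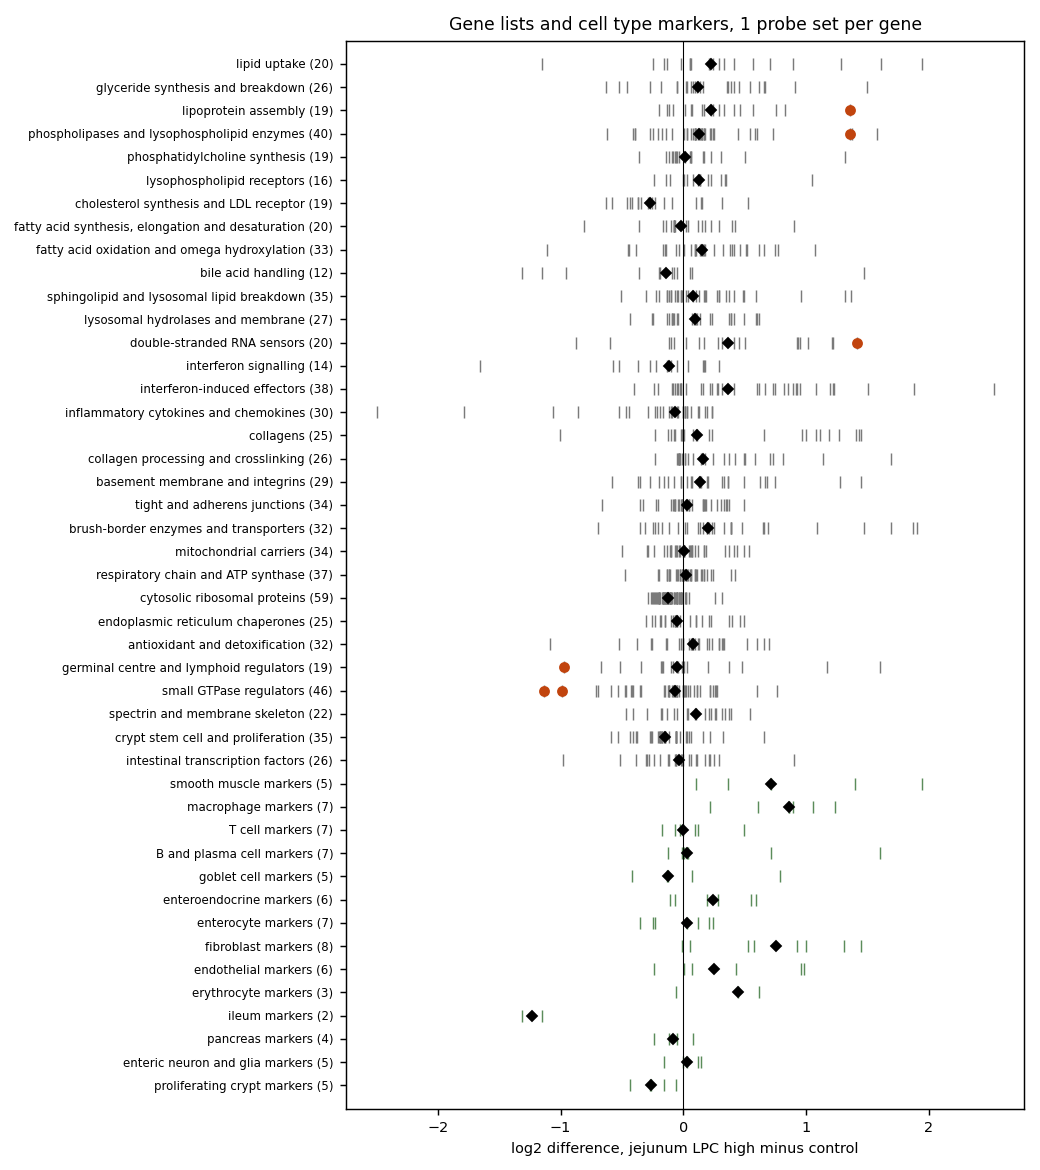
Each row is a gene list or a list of cell type markers with its number of measured genes; small ticks are the genes' log2 differences (LPC high minus control, 1 probe set per gene, x axis), diamonds the medians, and orange circles the genes past the threshold. The medians lie near 0 for most lists, at 0.36 for the double-stranded RNA sensors and the interferon-induced effectors, at -0.27 for cholesterol synthesis, and highest for markers of macrophages, fibroblasts and smooth muscle. The lowest median is that of the 2 ileum markers, at -1.23, or -0.21 without control bird 2.

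The other genes that rose included SLC25A22, NT5C3B and RTCB. SLC25A22, a mitochondrial glutamate carrier, read 6.06, 6.38, 7.41, 7.10 and 6.77 in controls and 7.85, 8.04, 8.94, 8.32 and 8.65 on LPC high. The groups did not overlap, the rise was 1.62 ± 0.28 (adjusted p = 0.0322, limma), and within batches 1 to 3 the difference was 1.73, 1.69 and 1.72. Its other probe set, far brighter at 11.6, differed by 0.37 ± 0.15 (adjusted p = 0.345). Of 34 measured mitochondrial carriers none passed by its brightest probe set, and the median was 0.01.

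NT5C3B, a nucleotidase that acts on methylated cap nucleotides, read 6.75, 7.46, 7.06, 7.31 and 6.74 in controls and 8.08, 8.19, 9.18, 8.33 and 8.65 on LPC high. LPC high bird 3 was highest, the groups were apart, and the rise was 1.43 ± 0.28 (adjusted p = 0.0491, limma), or 0.77 with the index. RTCB, the ligase that seals cut tRNA and the spliced XBP1 message, read 7.83, 7.55, 7.83, 7.74 and 7.64 in controls and 9.01, 9.24, 8.86, 8.88 and 8.72 on LPC high. Its rise of 1.21 ± 0.22 (adjusted p = 0.0404) came from the only RTCB probe set and was 0.50 with the index. The other genes that rose were ANO9, a phospholipid scramblase (1.21 ± 0.22), RMDN2 of the regulators of microtubule dynamics (1.14 ± 0.21), the tetraspanin CD151 (1.09 ± 0.20), TOR1A, an ATPase of the endoplasmic reticulum (1.02 ± 0.17), NUMB, an inhibitor of Notch (0.99 ± 0.19), and KLHDC2, a substrate receptor of an E3 ligase (0.89 ± 0.17). Their adjusted p ran from 0.0289 to 0.0462, and in each the 5 LPC high birds lay above the 5 controls. With the index the difference was 0.57 for ANO9, 0.57 for TOR1A and 0.32 for KLHDC2. The brightest probe set differed by 0.10 ± 0.09 for TOR1A and by 0.21 ± 0.18 for NUMB. For ANO9, CD151 and KLHDC2 it differed by 0.49 ± 0.15, 0.61 ± 0.18 and 0.47 ± 0.12, and none of these passed. SURF4, a receptor that carries cargo out of the endoplasmic reticulum and falls outside the 15 largest rises, was named after its value was seen and rose by 0.79 ± 0.15 (adjusted p = 0.0404), or by 0.46 with the index. Its brightest probe set, at 11.6, differed by 0.16 ± 0.10.

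The genes that fell included regulators of small GTPases. RALGAPA2, a subunit of the complex that switches off the Ral GTPases, read 6.69, 6.76, 7.40, 6.80 and 7.56 in controls and 5.52, 5.68, 6.20, 6.42 and 6.12 on LPC high. Every LPC high bird was below every control, and RALGAPA2 fell by 1.13 ± 0.17 (adjusted p = 0.0289, limma). It changed by -1.03 with the index as a covariate. A dimmer RALGAPA2 probe set, at 5.01, differed by 0.12 ± 0.12, and RALGAPB, the partner subunit, by -0.08 ± 0.12. ARFGEF1, which activates ARF GTPases at the Golgi, read 7.54, 7.41, 8.82, 9.09 and 9.05 in controls and 6.40, 6.29, 7.92, 8.41 and 8.30 on LPC high. Here the groups overlapped. Birds 1 and 2 of both groups, which belong to batch 1, were lower than the rest, and the difference of -0.99 ± 0.17 (adjusted p = 0.0289) was -1.13, -1.03 and -0.69 within batches 1 to 3. ARHGEF12, an activator of RhoA, fell by 0.81 ± 0.16 (adjusted p = 0.0452), also with overlapping groups, while its brighter probe sets differed by -0.34 ± 0.11, -0.18 ± 0.11 and 0.25 ± 0.17.

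Of 46 measured regulators of small GTPases 2 fell by their brightest probe set (RALGAPA2 and ARFGEF1) and none rose. Unadjusted p under 0.05 was reached by 10 downward and 1 upward, against 4.96% and 6.04% of all genes, and the median was -0.06. GBF1, another ARF activator, had the 1 upward value, 0.60 ± 0.19 (adjusted p = 0.216), which was -0.03 with the index.

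BCL6, ZNF236, TSHZ2, KDM4C, KDM3B and ATF7IP, which act on chromatin or transcription, fell. BCL6, a repressor best known from germinal centre B cells, read 8.64, 8.25, 7.86, 7.90 and 8.12 in controls and 6.85, 7.33, 7.08, 7.13 and 7.61 on LPC high. The groups did not overlap, and BCL6 fell by 0.97 ± 0.18 (adjusted p = 0.0452, limma). The dimmer BCL6 probe set differed by -0.36 ± 0.23. Markers of B and plasma cells had a median of 0.03 over 7 genes and PRDM1, the factor that BCL6 opposes, differed by -0.52 ± 0.46. ZNF236, a zinc finger protein that responds to glucose in human cells, read 6.04, 6.09, 6.21, 5.83 and 6.38 in controls and 4.89, 4.92, 5.40, 5.48 and 5.32 on LPC high. It fell by 0.95 ± 0.16 (adjusted p = 0.0289), and all 8 of its other probe sets had negative differences, 2 of them past the threshold. The brightest of the 8, at 5.96, differed by -0.07 ± 0.29.

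TSHZ2, a teashirt factor, read 5.00, 4.74, 4.73, 4.83 and 4.81 in controls and 3.51, 3.64, 3.65, 4.16 and 4.50 on LPC high. The controls lay close together, the groups were apart, and TSHZ2 fell by 0.97 ± 0.18 (adjusted p = 0.0404, limma), with a difference of -0.45 once the index was a covariate. TSHZ1, its relative, had every LPC high bird below every control as well, with a difference of -0.98 ± 0.27 that did not pass (adjusted p = 0.14). The histone demethylases KDM4C and KDM3B, which act on histone H3, fell by 0.83 ± 0.15 and 0.72 ± 0.14 (adjusted p = 0.0333 and 0.0452), and KDM3B differed by -0.41 with the index. ATF7IP, a partner of the histone methyltransferase SETDB1, fell by 0.83 ± 0.16 (adjusted p = 0.0452). KDM4C read 4.89, 5.33, 4.80, 4.77 and 5.01 in controls and 4.35, 4.00, 4.05, 4.36 and 4.42 on LPC high, and its brighter probe set differed by -0.14 ± 0.15.

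The remaining genes that fell work in signalling, junctions, the cell cycle and protein turnover. STK24, a kinase of the Ste20 family, read 5.19, 5.49, 4.90, 4.86 and 5.03 in controls and 3.87, 4.38, 4.21, 4.05 and 4.54 on LPC high. It fell by 0.93 ± 0.15 (adjusted p = 0.0289, limma), and another STK24 probe set fell by 0.88 ± 0.16. The brightest STK24 probe set, at 8.15, differed by -0.19 ± 0.12, and the remaining ones by 0.02 ± 0.08 and -0.04 ± 0.08. MAGI1, a scaffold of tight junctions, read 8.34, 7.89, 7.55, 7.77 and 7.99 in controls and 7.39, 7.30, 6.90, 7.03 and 7.24 on LPC high. The birds within each group lay close together and the groups were apart. MAGI1 fell by 0.76 ± 0.12 (adjusted p = 0.0289), all 8 of its other probe sets had negative differences, of which 1 passed, and the brightest differed by -0.36 ± 0.14. No other of the 34 measured junction genes passed, and the list's median was 0.03. CCNI, an atypical cyclin, fell by 0.63 ± 0.10, and another of its probe sets by 0.55 ± 0.10. The remaining CCNI probe sets, at 8.12 and 8.42, differed by -0.19 ± 0.15 and -0.07 ± 0.18, neither past the threshold. MYCBP2, an E3 ligase, fell by 0.60 ± 0.10 with overlapping groups, and its brightest probe set, at 9.07, differed by -0.04 ± 0.18. TMEM39A of the endoplasmic reticulum fell by 0.47 ± 0.09 by a dim probe set. The brightest TMEM39A probe set, at 8.18, differed by 0.07 ± 0.15. Another, at 6.95, differed by 0.67 ± 0.20 (adjusted p = 0.175) and passed upward with the segment score as a covariate (0.87 ± 0.16, adjusted p = 0.0185, limma). MKL1, a coactivator of the serum response factor, fell by 0.41 ± 0.08, and CLSPN, claspin of the replication checkpoint, named after its value was seen, by 0.31 ± 0.06. The adjusted p of these 5 genes ran from 0.0289 to 0.0462. CLSPN, dim at 3.94 to 4.15 in controls and 3.62 to 3.83 on LPC high, and TSHZ2, STK24, KDM4C and TMEM39A had a mean jejunal level under 5.

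In the remaining lists no gene other than BCL6 passed by its brightest probe set. Cytosolic ribosomal proteins had 6 of 59 genes positive and a median of -0.12, or -0.04 without control bird 2. Genes of crypt stem cells and proliferation had 8 of 35 positive and a median of -0.15, or 0.04 without that bird. The medians were 0.20 over 32 genes of brush-border enzymes and transporters, 0.10 over 27 genes of lysosomal proteins, 0.08 over 32 genes of antioxidant and detoxifying enzymes, 0.02 over 37 genes of the respiratory chain. They were -0.06 over 25 genes of chaperones of the endoplasmic reticulum, -0.04 over 26 genes of intestinal transcription factors, 0.10 over 22 genes of the membrane skeleton, and -0.05 over 19 genes of germinal centre and lymphoid regulators. Among brush-border genes the largest values belonged to TMPRSS15, the enteropeptidase that activates trypsin, at 1.91 ± 1.17, and LCT, which splits milk and plant glycosides, at 1.87 ± 1.17. Neither passed.

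Markers of macrophages, fibroblasts and smooth muscle had mostly positive differences on LPC high, none past the threshold. The median difference was 0.86 over 7 macrophage markers, all positive, 0.75 over 8 fibroblast markers, 7 positive, and 0.71 over 5 smooth muscle markers, all positive. Over 25 collagens, of which 16 were positive and none passed, it was 0.11, or 0.24 without control bird 2. It was 0.25 over 6 endothelial markers, 5 positive, and 0.03 over 5 markers of enteric neurons and glia, 3 positive. It was 0.03 for enterocyte, 0.03 for B and plasma cell, 0.00 for T cell and -0.26 for proliferating crypt markers. Without control bird 2 the median of the proliferating crypt markers was -0.04. Mean levels over the fibroblast list ran from 5.47 to 6.13 in controls and from 5.98 to 7.44 on LPC high, and over the macrophage list from 5.92 to 7.13 and from 6.81 to 8.46.

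COL3A1, a fibrillar collagen of fibroblasts, read 9.07, 8.57, 9.09, 9.43 and 8.17 in controls and 9.41, 9.87, 11.13, 10.12 and 10.44 on LPC high. LPC high bird 3 was highest, bird 1 lay inside the control range, and the difference of 1.45 ± 0.74 did not pass (adjusted p = 0.499, limma). MYH11, smooth muscle myosin, read 5.42, 3.70, 5.01, 6.57 and 4.10 in controls and 5.76, 6.92, 7.79, 6.48 and 6.90 on LPC high, a difference of 1.94 ± 0.84 (adjusted p = 0.397). C1QB, a complement subunit made by macrophages, read 6.81, 6.37, 6.20, 6.98 and 5.44 in controls and 6.89, 6.44, 9.57, 7.28 and 7.30 on LPC high, where bird 3 alone stood far above. In the ileum of the same diets these differences ran the other way, at -2.15 ± 0.77 for COL3A1, -1.16 ± 0.71 for MYH11 and -0.87 ± 0.42 for C1QB. The jejunal minus the ileal effect, 3.59 ± 0.84, 3.10 ± 0.80 and 2.11 ± 0.58 in turn, did not pass for any of them (adjusted p = 0.494, 0.513 and 0.542, limma). LPC high bird 3 was also the highest bird for RSAD2 and IFIT5, and the part of cell makeup in these values was not tested.

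Dose was addressed by setting LPC high (19 g/T) against LPC low (9.5 g/T), both in the jejunum. No probe set passed (limma, smallest adjusted p 0.129, 2288 or 5.96% with an unadjusted p under 0.05). The 32 genes were chosen on the same LPC high birds, so their values are a description, and the smallest adjusted p among them was 0.700. On average the 5' minus 3' index was -0.72 on LPC low and -0.46 on LPC high. With it as a covariate no probe set passed either (limma, smallest adjusted p 0.0842), but 4221 had an unadjusted p under 0.05. The number of probe sets with a low unadjusted p thus depended on the index. The dose differences of single genes given here are without the index. LPC low bird 4 lay on the ileum side of the segment score at -5.73, and the other LPC low birds scored -1.22, 1.64, 1.91 and -0.01. CYP4V2 read 9.55, 9.53, 9.96, 9.37 and 10.03 on LPC low, and LPC high exceeded it by 1.32 ± 0.35 (95% interval 0.59 to 2.05). Without the arrays on the side of the other segment this was 1.18 ± 0.26, and with the segment score as a covariate 0.71 ± 0.34. RMDN2 differed between the doses by 1.00 ± 0.21, or 0.70 ± 0.23 with the score, and STK24 by -0.54 ± 0.15, or -0.51 ± 0.18 with the score. For TLR3, the levels on LPC low were 8.28, 9.57, 8.41, 9.53 and 8.69, and the dose difference was -0.24 ± 0.23 (95% interval -0.73 to 0.24), and ZC3HAV1 had a dose difference of -0.03 ± 0.25 (95% interval -0.55 to 0.50). The interferon-induced effectors had a median of 0.64 on LPC low minus control, a value that shares its control birds with the 0.36 on LPC high.

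Purified LPC and lysolecithin were compared at the matched 19 g/T of LPC. Again no probe set passed (limma, smallest adjusted p 0.205, 2346 or 6.11% with an unadjusted p under 0.05). The 32 genes were chosen on these LPC high birds here too, and 0.797 was their smallest adjusted p. The 5' minus 3' index averaged -0.64 on lysolecithin high (-1.07 to -0.30). With it as a covariate no probe set passed either (limma, smallest adjusted p 0.413), and 1794 had an unadjusted p under 0.05. TLR3 read 7.56, 7.72, 7.75, 7.42 and 8.41 on lysolecithin high, and purified LPC exceeded it by 0.88 ± 0.23 (95% interval 0.40 to 1.36). ZC3HAV1 was higher on purified LPC by 0.71 ± 0.25 (95% interval 0.19 to 1.24). PLA2G12B read 7.99, 7.77, 7.75, 7.09 and 8.27 on lysolecithin high, and the products differed by 0.53 ± 0.23. Among genes that fell, RALGAPA2 differed between the products by 0.15 ± 0.17 (95% interval -0.20 to 0.50) and MAGI1 by 0.01 ± 0.12 (95% interval -0.23 to 0.25). None of these intervals corrects for the number of genes.

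Set against the same 5 control birds, 1 of the 32 genes passed on LPC low (TLR3; 0.00261% of all probe sets), 8 on lysolecithin low (0.0495%) and 16 on lysolecithin high (0.829%). CYP4V2 differed from control by 1.80 ± 0.35 on LPC high, 0.49 ± 0.35 on LPC low and 1.10 ± 0.35 on lysolecithin high. For RALGAPA2 these values were -1.13 ± 0.17, -0.78 ± 0.17 and -1.28 ± 0.17. Because the diets share their controls, like values across them are not independent of one another.

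In the ileum of the same birds no probe set passed between LPC high and control (limma, 3828 or 9.97% with an unadjusted p under 0.05), and so none of the 32 genes did. The effect in the jejunum minus that in the ileum, tested on each bird's difference between segments, passed for no probe set either (smallest adjusted p 0.494, 2877 or 7.50% with an unadjusted p under 0.05). With only these diets in the fit 186 passed, 168 higher and 18 lower. The 32 genes were chosen for their jejunal difference, which is part of this contrast, and 0.550 was their smallest adjusted p. BCL6 read 8.10, 8.19, 8.42, 8.12 and 8.53 in the ileum of controls and 8.26, 8.00, 8.16, 7.85 and 8.33 on LPC high. Its ileal difference was -0.15 ± 0.18 and the jejunal minus the ileal effect was -0.82 ± 0.24 (unadjusted p = 0.00248, limma). MAGI1 differed by -0.14 ± 0.18 in the ileum (unadjusted p between segments = 0.0068). At the other extreme, RTCB differed by 1.05 ± 0.20 and ZNF236 by -1.01 ± 0.23 in the ileum, with differences between segments of 0.16 ± 0.26 and 0.06 ± 0.31. The 5' minus 3' index separated control and LPC high birds in the ileum as well, and the ileal differences were not fitted with it as a covariate.

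**Figure D5:**
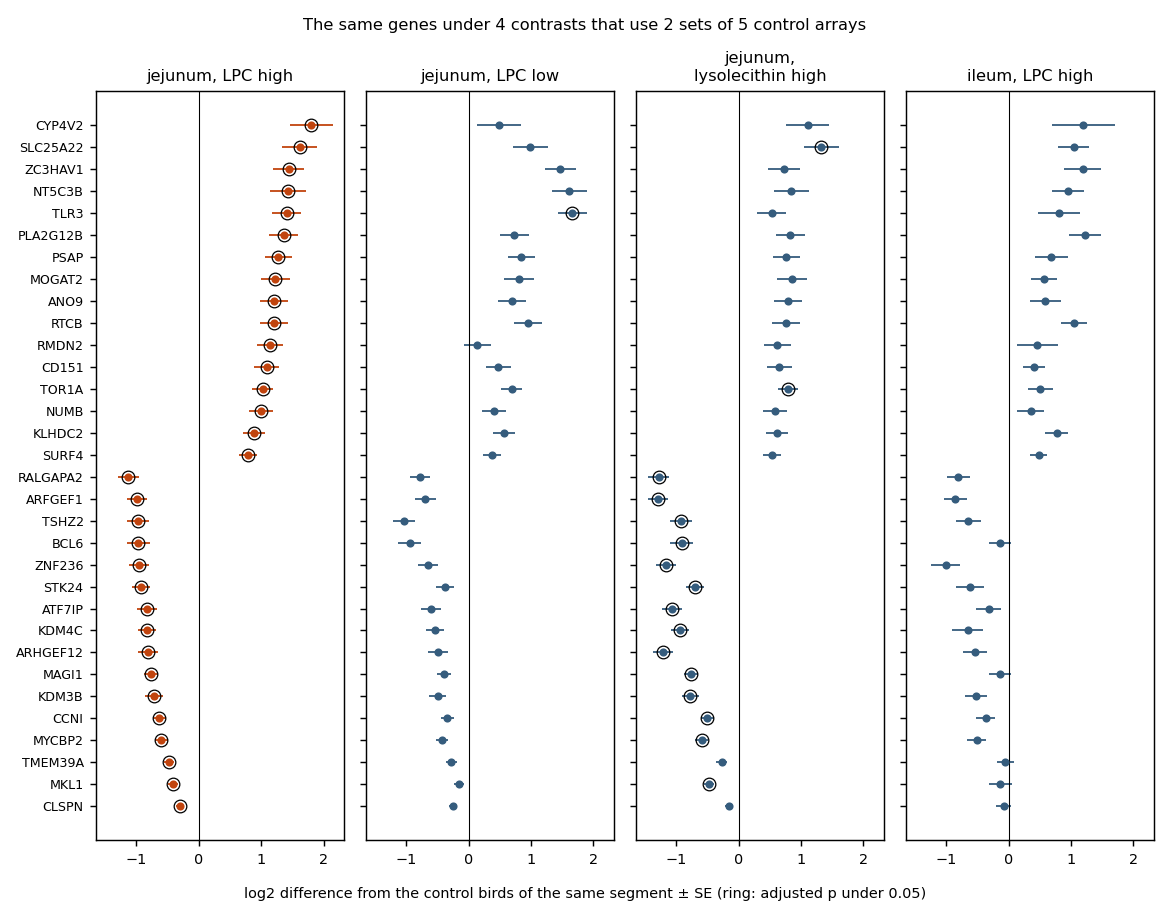
Log2 differences from the control birds of the same segment (points, x axis) with their SE (bars) for the 32 genes, in the jejunum on LPC high, LPC low and lysolecithin high and in the ileum on LPC high; rings mark adjusted p under 0.05, and the 3 jejunum panels share their 5 control birds. Rings mark all 32 genes on LPC high in the jejunum, where the genes were chosen, 1 on LPC low, 16 on lysolecithin high and none in the ileum.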

How the data were processed

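Mucosal RNA of 25 birds was hybridised to Affymetrix chicken genome arrays, 1 for the jejunum and 1 for the ileum of each bird. The authors deposited log2 signals made with RMA, and per the submitters' processing notes they used RMA and limma, with versions not given in the sources used here. The members, gene lists and tests were chosen with earlier results of these data known. limma 3.58.1 (R 4.3.3) fitted diet and batch to the 25 jejunum arrays over 38382 probe sets, leaving out 153 control probe sets. It was tested on simulated data. The difference between segments was fitted on each bird's jejunum minus ileum signal. GEO's platform annotation gave 27168 probe sets exactly 1 symbol, 11037 none and 177 several. The 15 genes with the largest rise and the 15 with the largest fall past the threshold were named, each by its probe set of lowest p. List genes were read by the probe set of highest mean, and the named ones were members past the threshold, the largest and smallest differences, and defining members. Alternatives changed the batch term, filter, prior, weights, centring, arrays and covariates. Figures used matplotlib 3.10.9.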

Additional observations from a re-analysis of the deposited data

Results flagged for a closer look

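In 192 groups of 5 birds, 11 held 1 bird far from the other 4 (Dixon's test, critical value 0.71 of the group's range). Chance gives about 1 in 20 such groups, and 11 of 192 is close to that share. The groups reuse the same 10 birds, so this share cannot tell whether the flags go beyond chance, and the values given here are a description. Of the 11 groups 10 were of controls and 1 was of LPC high birds. Control bird 2, whose segment score lay on the ileum side, accounted for 9 of the 11 groups. It was low for CD36 (4.33 on the log2 scale, with a gap of 0.842 of the range), SCARB1 (5.62, gap 0.734), PISD (5.22, gap 0.760) and LPAR5 (8.39, gap 0.774). It was also low for APOA4 (11.69, gap 0.825), ASAH2, a neutral ceramidase of the brush border (6.11, gap 0.881), LPAR1 (3.51, gap 0.729) and ENPP2, which makes lysophosphatidic acid from LPC (3.55, gap 0.738). It was high for PLA2G15, a lysosomal phospholipase (9.23, gap 0.752), whose difference was -0.63 with this bird and -0.25 without it. GBF1 was low in control bird 1 (5.52, gap 0.816). The macrophage gene C1QB was high in LPC high bird 3 (9.57, gap 0.725).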

How the results depend on the processing

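The sign of the 32 genes past the threshold was kept under every alternative in which their probe sets were tested. Other values did change sign, such as GBF1 (0.60, or -0.03 with the index) and the median of crypt stem cell and proliferation genes (-0.15, or 0.04 without control bird 2), neither past the threshold. The count of probe sets past the threshold moved widely from the reported 43 (LPC high minus control, limma). It was 908 with array weights, 443 with only the 2 groups compared in the fit, 286 with the segment score as a covariate, 104 with brighter probe sets only (mean of 5 or more, which leaves out 5 of the 32 genes), 8 without the 4 arrays whose segment score lay on the side of the other segment, 2 with batch as a random block and 0 with the 5' minus 3' index as a covariate. With both segments fitted and the bird as a replicate block 198 passed, of which 38 were among the 43. This pairing of segments within birds is the design's own, and birds of different diets are not paired. Leaving out 1 bird gave counts from 0 to 28. The count was 0 without control bird 1 or 5 or LPC high bird 1, 3 or 4, 1 without control bird 2 or LPC high bird 2, 11 without control bird 4, 25 without control bird 3 and 28 without LPC high bird 5. For purified LPC against lysolecithin at 19 g/T the count of 0 became 2 with the replicate block, and 0 to 2 on leaving out 1 bird (2 without lysolecithin high bird 3, 1 without bird 5). For LPC high against LPC low leaving out 1 bird gave 0 to 1 (1 without LPC low bird 1). For the jejunal minus the ileal effect it was 186 with only the 2 groups in the fit. The cause of these changes was not tested, and the fits that left out birds also had fewer birds. Over the 32 genes and their alternatives 273 values stayed past the threshold and 394 did not. Of the list medians 960 moved by less than 1 SD of the control birds and 29 by more. With the index as a covariate 9 moved by more and 36 by less, the most moved under any alternative. Without control bird 2 all 45 moved by less. That SD includes control bird 2, and leaving out 1 of 5 birds moves their mean by little beside it. A shift past 1 SD could hardly occur there, so this count does not show that the medians hold without the bird. The same limit applies to each other control bird left out. Among the 45, the median of the ileum markers went from -1.23 to -0.21 without control bird 2. Without the arrays in doubt the genes past the threshold included EPAS1 (0.91) and BFAR (0.98), which were not among the 43. Values near the bottom of the scale, such as those of LPAR1, IL1B and CLSPN, lie close to background and limit what can be read from them.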

Other observations

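ENPP7, the alkaline sphingomyelinase of the intestinal brush border, had levels near the top or near the bottom of its range and none between in these birds. They were 12.19, 5.45, 5.49, 11.53 and 5.65 in control birds 1 to 5 and 11.37, 11.61, 4.97, 11.91 and 5.75 in LPC high birds 1 to 5. High birds occurred in both groups, 2 among the controls and 3 on LPC high, and the difference was 1.31 ± 1.95 (not past the threshold, limma). The segment scores of the birds near the top ran from -0.85 to 3.25. Among the birds near the bottom the score was -4.77 in control bird 2 and 4.13 to 5.20 in the others. A link between ENPP7 and the segment score was not tested.

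With the segment score as a covariate 286 probe sets passed, 193 higher and 93 lower, the 43 among them. The added genes named here were chosen after their values were seen. CD74, which was placed on the list of macrophage markers but is not made by macrophages alone, and MTTP passed upward. They differed by 1.46 ± 0.19 and 0.54 ± 0.12 (adjusted p = 0.00776 and 0.0413, limma). Without the score these 2 differed by 0.95 and 0.76 (adjusted p = 0.311 and 0.0697). STK38L and KLF9 passed downward. STK38L, a kinase of the NDR family, differed by -2.34 ± 0.43 (adjusted p = 0.0182, limma), and KLF9, a transcription factor that responds to hormones, by -1.56 (adjusted p = 0.0183). Without the score STK38L differed by -1.95 (adjusted p = 0.0814) and KLF9 by -1.19 (adjusted p = 0.176).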
